A study of Mus musculus with 26 samples.

Results

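A set of 436 core regions was described, the stretches of the mouse genome in which RNA 5-hydroxymethylcytosine (5hmC) peaks were found in at least 10 of 13 immunoprecipitated libraries. They were chosen by the presence of a peak, after merging the peak intervals of all 13 libraries that overlapped by at least 1 bp into 23367 regions. Because peak presence chose the members, it is given as a description and was not tested. Of the 436 regions, 58 had a peak in all 13 libraries, 94 in 12, 131 in 11 and 153 in 10, while 12533 of all merged regions had a peak in a single library.

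The libraries came from hMeRIP-seq, in which fragmented total RNA is immunoprecipitated with an anti-5hmC antibody and sequenced next to its input. There were 3 libraries each of mouse embryonic stem cells of wild-type genotype (WT ESC), of a stem cell line without functional Tet1, Tet2 and Tet3 (TKO ESC) and of embryoid bodies that wild-type stem cells had formed in 4 days without leukaemia inhibitory factor (WT EB). There were 2 libraries each of Tet2-KI ESC, whose own Tet2 gene was given a C-terminal tag, and of Tet2deltaRBD-KI ESC, in which the tagged protein also lacks the RNA-binding domain. The knock-in cells came from picked clones, TKO ESC came from an existing line, and embryoid bodies are a mixture of cell types. The study describes its experiments as independent, and the labels do not say which libraries came from separate cultures.

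In RNA, 5hmC is formed when Tet dioxygenases oxidise 5-methylcytosine, a mark that methyltransferases place on cytosines of tRNA, rRNA and messenger RNA. Tet1 and Tet2 are the Tet enzymes of embryonic stem cells, and Tet2 can be brought to transcripts by RNA-binding partners. An antibody peak marks a fragment recovered more often than in the input and not a single modified base, and a region without a peak is one in which no peak passed the threshold.

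Most core regions lay in coding sequence (165, with a median of 33% pyrimidines) or deep inside introns (155, with a median of 10% cytosine and a longer repeat in 40), and a further 50 lay in introns near a splice site. Windows of 200 bases around the region centre are printed as DNA, 5′ to 3′ on the strand of the gene, with each cytosine in capitals because cytosine is the base that carries the mark. Coordinates are of NCBIM37, the assembly behind mm9. The first set holds the 4 core regions with the highest mean percentile of enrichment over the lists that rank them, each deep inside an intron, that is, more than 100 nt from a splice site. It comprises Calm2, which encodes the calcium sensor calmodulin (chr17:87837185-87837384, minus strand), Dyrk1a, which encodes a protein kinase (chr16:94851679-94851878, plus strand), Nedd4, which encodes a ubiquitin ligase (chr9:72510553-72510752, plus strand), and Ube2v1, which encodes a ubiquitin-conjugating enzyme variant (chr2:167440273-167440472, minus strand).
Calm2 intron 2: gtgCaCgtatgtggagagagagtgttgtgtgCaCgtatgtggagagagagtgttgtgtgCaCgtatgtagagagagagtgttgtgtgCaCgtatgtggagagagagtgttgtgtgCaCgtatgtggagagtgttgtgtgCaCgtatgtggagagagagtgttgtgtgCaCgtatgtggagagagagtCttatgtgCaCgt
Dyrk1a intron 2: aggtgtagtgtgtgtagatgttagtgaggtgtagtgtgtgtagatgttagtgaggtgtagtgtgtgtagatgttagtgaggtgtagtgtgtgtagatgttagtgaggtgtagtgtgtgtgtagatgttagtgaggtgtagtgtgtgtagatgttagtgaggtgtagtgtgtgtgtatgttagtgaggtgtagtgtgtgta
Nedd4 intron 1: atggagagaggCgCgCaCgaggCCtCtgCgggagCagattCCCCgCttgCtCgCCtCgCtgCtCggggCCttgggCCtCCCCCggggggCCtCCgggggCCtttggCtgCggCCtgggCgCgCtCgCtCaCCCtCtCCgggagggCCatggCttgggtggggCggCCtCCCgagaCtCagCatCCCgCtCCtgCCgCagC
Ube2v1 intron 2: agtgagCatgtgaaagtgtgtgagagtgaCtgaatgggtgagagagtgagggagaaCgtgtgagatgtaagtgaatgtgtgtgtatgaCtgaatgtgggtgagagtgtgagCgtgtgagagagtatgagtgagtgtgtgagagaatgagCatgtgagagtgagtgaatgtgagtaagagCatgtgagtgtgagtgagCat

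The Dyrk1a window held 0 cytosines and 85 guanines, the Ube2v1 window 8 cytosines, the Calm2 window 17 and the Nedd4 window 75. In Calm2 and Dyrk1a the same unit recurs along the window, and 87.9% and 92.8% of the bases in 400 bp around the centre equalled the base 28 and 26 positions further on. Nedd4 is the exception among these, with no such repeat and as many cytosines as guanines.

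The second set holds the highest ranking windows in coding sequence. It comprises BC005561 (chr5:104951057-104951256, plus strand), Sfrs18, now named Pnisr, which encodes a serine- and arginine-rich splicing-related protein (chr4:21801271-21801470, plus strand), and Ankrd12, which encodes an ankyrin repeat protein of the nucleus (chr17:66335418-66335617, minus strand).
BC005561 CDS: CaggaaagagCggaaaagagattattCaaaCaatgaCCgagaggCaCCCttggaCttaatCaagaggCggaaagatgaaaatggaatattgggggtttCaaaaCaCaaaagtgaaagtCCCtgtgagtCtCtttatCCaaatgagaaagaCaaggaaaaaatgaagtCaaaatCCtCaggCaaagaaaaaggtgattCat
Sfrs18 CDS: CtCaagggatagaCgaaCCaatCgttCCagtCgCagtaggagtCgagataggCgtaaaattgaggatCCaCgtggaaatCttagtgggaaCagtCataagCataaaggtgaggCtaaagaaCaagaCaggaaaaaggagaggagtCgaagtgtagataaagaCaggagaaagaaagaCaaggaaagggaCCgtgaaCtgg
Ankrd12 CDS: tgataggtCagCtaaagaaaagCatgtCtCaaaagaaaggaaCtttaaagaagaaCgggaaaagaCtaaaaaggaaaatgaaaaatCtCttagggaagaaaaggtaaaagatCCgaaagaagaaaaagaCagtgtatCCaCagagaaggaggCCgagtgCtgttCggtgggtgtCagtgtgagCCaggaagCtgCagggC

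These windows are rich in adenine and guanine. The cytosines numbered 30 in BC005561, 28 in Sfrs18 and 26 in Ankrd12, and the thymines 37, 29 and 31. The third set shows how a region centred on an intron can run into an exon. It comprises Nasp, which encodes a histone chaperone (chr4:116291357-116291556, minus strand), and Dnajc2, which encodes a ribosome-associated co-chaperone (chr5:21274286-21274485, minus strand). In Nasp the first 82 bases of the window are exonic. In Dnajc2 the window spans an intron of 87 nt and 113 of its bases lie in the exons on either side.
Nasp, edge of intron 4: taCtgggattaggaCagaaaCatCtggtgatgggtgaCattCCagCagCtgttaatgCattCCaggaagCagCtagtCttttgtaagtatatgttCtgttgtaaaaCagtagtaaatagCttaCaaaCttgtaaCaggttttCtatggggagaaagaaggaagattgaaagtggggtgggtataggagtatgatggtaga
Dnajc2, intron 8: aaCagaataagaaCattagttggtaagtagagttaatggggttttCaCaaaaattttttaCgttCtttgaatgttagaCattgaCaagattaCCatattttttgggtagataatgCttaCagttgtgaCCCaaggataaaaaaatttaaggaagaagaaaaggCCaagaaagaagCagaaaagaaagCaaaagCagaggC

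Transcript parts and genes were assigned by the region centre. Of the 436 regions, 165 (37.8%) lay in coding sequence, 15 in 3′ UTRs, 8 in 5′ UTRs, 205 (47.0%) in introns of coding genes, 16 in noncoding genes and 27 (6.19%) outside genes. Over all 23367 regions the share in coding sequence was 17.1%, in introns 55.5% and outside genes 17.3%. Among the 393 core regions in coding genes, 188 (47.8%, exact Clopper-Pearson 95% interval 42.8 to 52.9%) were exonic, beside 31.1% of all 18814 regions in coding genes. The intervals cover counting error only. When any overlap of the 200 bp window with an exon was counted, 60.6% of the core regions and 44.9% of all regions were exonic. Within the lists of single libraries, the core regions were more often exonic than the other regions of the same list in 12 of 13 libraries, with Tet2deltaRBD-KI ESC replicate 2 as the exception (43.4% beside 51.7%). The difference was small in WT EB replicates 2 (49.4% beside 46.1%) and 3 (47.5% beside 46.8%). It was large in WT ESC replicates 2 (47.6% beside 22.4%) and 3 (48.1% beside 23.2%).

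**Figure D1:**
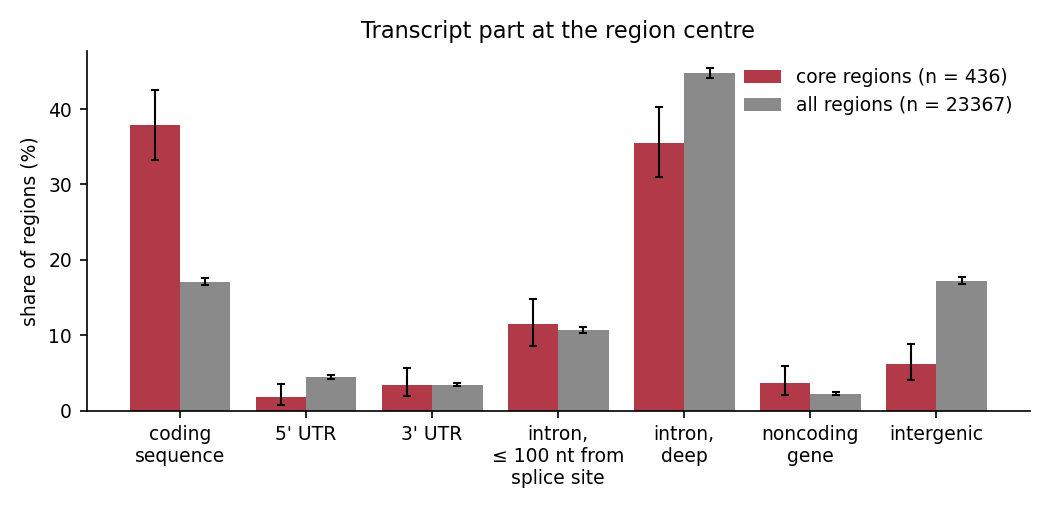
Share of regions (%) whose centre lies in each transcript part, for the 436 core regions and all 23367 merged regions; bars start at 0 and error bars are exact 95% Clopper-Pearson intervals. Coding sequence holds 37.8% of core regions beside 17.1% of all regions, and intergenic positions hold 6.19% beside 17.3%.

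Regions shared by many libraries were more often exonic and poorer in cytosine, although not at every step. The exonic share lay between 29.1 and 31.7% for regions of 1 to 6 libraries, was 37.6% for 7 and 33.2% for 8, and then 43.4% of those in 9, 45.7% of those in 10 and 53.8% of those in all 13. The median cytosine share of genic windows was 19% in 1 library, 15% in 7, 15.5% in 8, 14.5% in 9, 13% in 10, 13.5% in 11 and in 12, and 10.5% in 13. Just outside the threshold, the 245 regions of 9 libraries had a median mean percentile of column 5 of 65, and just inside it the 153 regions of 10 libraries had 65.7. Column 5, the fold enrichment of the immunoprecipitate over its input, was deposited for 9 libraries, those without a knock-in, and its percentile is the rank of a peak in its own list, 100 being the highest.

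**Figure D2:**
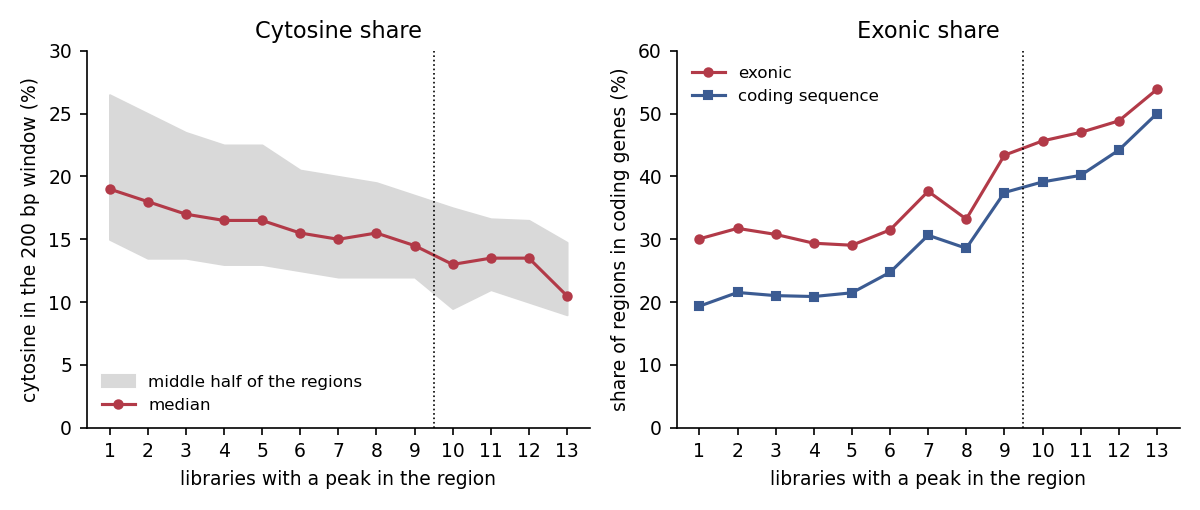
Left, cytosine share (%) of the 200 bp window on the strand of the gene, median and quartiles of the genic regions, by the number of libraries with a peak; right, exonic and coding share (%) of regions in coding genes. The dotted line marks the threshold between 9 and 10 libraries, and the median cytosine share is 19% at 1 library and 10.5% at 13, with an exonic share near 30.1% up to 6 libraries and of 53.8% at 13.

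The 409 core regions inside genes fell in 306 genes, and 20 genes held 3 or more, together 77 regions. Eif3a, the scaffold subunit of translation initiation factor eIF3, and Smc1a, a core subunit of the cohesin ring, held 6 each. Atrx (a chromatin remodeller), Ddx10 (an RNA helicase of the nucleolus), Mdn1 (an ATPase of ribosome assembly) and Nasp held 5 each. Rbm25 (a splicing regulator), Sltm (a nuclear matrix-associated RNA-binding protein) and Top1 (DNA topoisomerase I) held 4 each. The genes with 3 were Ccar1, Hnrnpa3, Luc7l3, Malat1, Ncl, Serbp1, Sfpq, Tpr, Trip12, Tsix and Zranb2. Hnrnpa3, Luc7l3, Sfpq and Zranb2 encode proteins of RNA binding and splicing, Tpr a protein of the nuclear pore, Trip12 a ubiquitin ligase, and Malat1 and Tsix are long noncoding RNAs. All 5 regions of Mdn1 and all 4 of Sltm lay in coding sequence, whereas the 3 of Hnrnpa3 were centred on introns.

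Gene lists chosen with earlier results of these data known were described by counts alone. Of all genes with a merged region, 4.15% (306 of 7370) had a core region. Among heat shock proteins and chaperones it was 10 of 26 genes (38.5%), namely Anp32a, Anp32b, Calr, Canx, Dnajc2, Hsp90aa1, Hsp90ab1, Hspa4, Hspa5 and Hspa9. Among hnRNP and paraspeckle genes it was 10 of 34 (29.4%), with Hnrnpa2b1, Hnrnpa3, Hnrnpf, Hnrnpm, Hnrnpu, Sfpq, Syncrip, Taf15 and Tardbp, and with Malat1, a nuclear speckle RNA that the list counts although it is no hnRNP or paraspeckle protein. Among RNA helicases it was 6 of 23 (26.1%), among SR and SR-related splicing factors 6 of 28 (21.4%) and among nucleolar and ribosome biogenesis genes 5 of 28 (17.9%). The smallest shares were in translation factors, 4 of 31 (12.9%), chromatin regulators, 9 of 69 (13%), and pluripotency factors, 2 of 24 (8.33%). The other lists were calmodulin, ubiquitin and kinase genes with 4 of 21 (19%) and cytoskeleton, motor and centrosome genes with 6 of 34 (17.6%). Gene length and expression were not adjusted for.

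The core regions were poor in cytosine and rich in purines on the strand of the gene. Over 409 genic windows the median composition was 32.5% adenine, 13% cytosine, 30.5% guanine and 22.5% thymine, and the median pyrimidine share was 36%, beside 42.5% over 19335 genic windows of all regions. A pyrimidine share of at most 35% was found in 190 core windows (46.5%) and in 19.6% of all. At most 20 cytosines in 200 bases were found in 118 core windows (28.9%) and in 7.82% of all, and at most 10 in 21 core windows (5.13%) and in 1.45% of all. Of the 434 core windows with reference sequence, 4 had no cytosine on the strand read, 2 of them in genes. The sources used here do not state whether the libraries kept strand, and read from the opposite strand the same 409 windows have a median cytosine share of 30.5%. The 4 genic windows with at least 65% pyrimidines lay in Alas2, Ppp1r9a and Xist, the latter with 2 windows.

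The low cytosine content was local. The 165 coding windows had a median of 14.5% cytosine while the whole coding sequences of their transcripts had 19.8%, and 144 windows (87.3%) were below their own transcript. The 153 deep intronic windows with a transcript model had 10% while the introns that hold them had 19.8%, and 135 (88.2%) were below their own intron. In the 50 windows centred within 100 nt of a splice site the values were 15.5% and 18.4%, with 39 below. In each of the 13 libraries the core regions had a lower median cytosine share (12.5 to 14%) than the other genic regions of the same list (14.5 to 28%).

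In deep introns the minimum of cytosine did not fall on the region centre but 5′ of it. Over 155 core regions the share was 12.5% in the 25 bp after the centre and reached its minimum of 8.15% between 150 and 125 bp upstream along the gene, where guanine stood at 39.2%. The minimum was in the same bin in the 87 regions of genes on the plus strand (9.10%) and in the 68 on the minus strand (6.94%), so the displacement follows the direction of the gene and not that of the chromosome. Over all 10474 deep intronic regions the minimum, 14.2%, lay between 125 and 100 bp upstream. In coding sequence the core minimum of 13.5% was in the 25 bp after the centre.

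**Figure D3:**
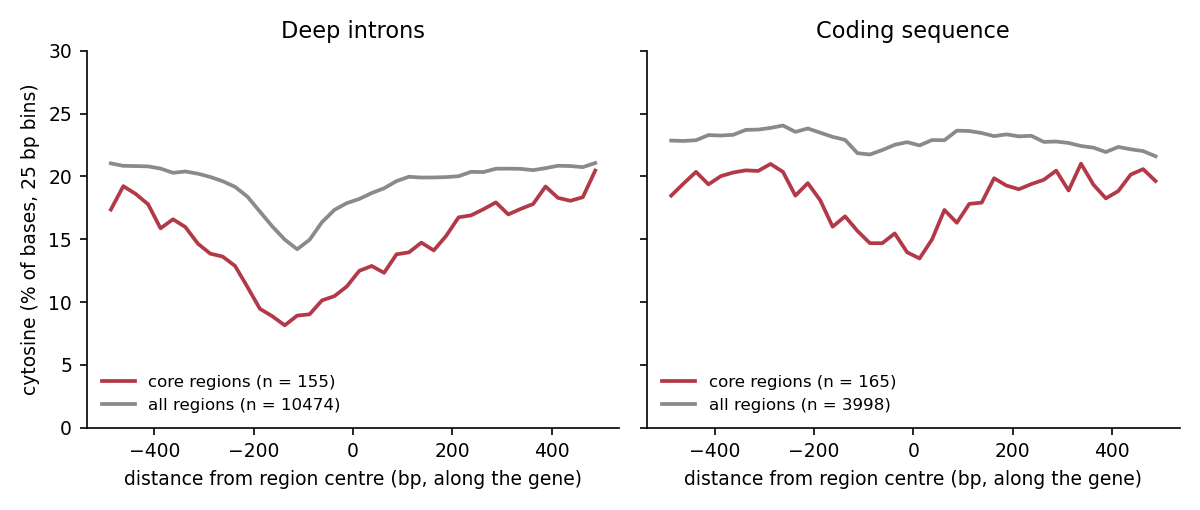
Cytosine (% of bases in 25 bp bins) by distance from the region centre in bp along the gene, with negative values upstream, for core regions and all regions in deep introns (155 and 10474 regions) and in coding sequence (165 and 3998 regions). The core line lies below the line of all regions in both panels, with a minimum of 8.15% upstream of the centre in deep introns and of 13.5% at the centre in coding sequence.

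Over all transcript parts together, short simple repeats were rarer in the core regions than among all regions, and longer repeats were more frequent. A run of at least 18 nt of a unit of 1 to 4 nt (20 nt for units of 4) was found in 15 core windows (3.44%, exact 95% interval 1.94 to 5.61%) and in 14% of all windows. A longer repeat was counted, after the sequences had been seen, where at least 60% of the bases in 400 bp equalled the base a fixed number of positions on, for the best number between 5 and 100. It was found in 54 core regions (12.4%) and in 6.11% of all, and 40 of the 54 were in deep introns, where they made up 25.8% of core regions and 7.18% of all regions. In coding sequence the longer repeat was not more frequent in the core (1.21% beside 1.85%). For 31 of the 40 in deep introns the best shift was between 10 and 40 bases. Examples with nearly exact copies were Dpy30 (a subunit of histone methyltransferase complexes) with 97.8% matching bases, Ncoa1 (a nuclear receptor coactivator) with 97.0% and 96.4% in 2 regions of intron 1, and Shoc2 (a Ras pathway scaffold) with 94.9%.

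The coding windows shared the letters of a small set of codons. GAAGAA was found in 100 of 165 core coding windows (60.6%) and in 28.4% of all 3998 coding windows, and it was the hexamer with the largest difference in share of all those compared, followed by AAGAAG (60% beside 28.8%). All motifs were searched on the strand of the gene only, and GAAGAA and AAGAAG overlap in longer runs. GGAGGA (34.5% beside 26.7%) and GAGGAG (37.0% beside 29.1%) differed less. TCTCTCTC was in 0 of 409 core genic windows beside 3.85% of all, in coding windows in 0 of 165 beside 0.450% and in deep introns in 0 of 155 beside 5.98%. In frame, over the 163 core coding windows with a complete reading frame, glutamate made up 19.8% and lysine 12.9% of the residues, beside 12% and 7.93% over 3835 coding windows. At least 30% glutamate and aspartate together was found in 70 core windows (42.9%) and 10.3% of all. The share was 58.2% in Htatsf1 (a splicing-associated factor), 47.2% in Sec63 (a translocation factor of the endoplasmic reticulum) and 39.4% in Hsp90aa1 (a cytosolic chaperone). Taf15, an RNA-binding protein of the FET family, was the 1 core window with at least 30% glycine (52.2%).

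The deep introns carried other letters. ATGTGT was in 27.7% of core windows and 11.7% of all deep intronic windows, and AGTGTG in 29.0% and 13.2%. GAAGAA was in 17.4% beside 15.1%, TGTGTGTG in 13.5% beside 8.40%, ACACACAC in 1.29% beside 5.38%, and GGGAGG in 5.16% beside 18.6%. Over all genic windows AGAGAGAG (7.33% beside 7.96%), AAAAAAAA (1.71% beside 2.84%), CTTCTT (5.38% beside 4.78%) and TCCTCC (1.47% beside 5.38%) had core shares within 1.5 times of or below those of all windows. In coding windows alone AGAGAGAG was more frequent in the core (7.27% beside 2.33%), as was AAAAAAAA (2.42% beside 1.23%). A match is a description of the letters and not a binding site.

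Most deep core regions were far from exons. Of the 153 with a transcript model, 117 (76.5%) were more than 1000 nt from a splice site and 80 (52.3%) lay in the first or second intron, beside 74.1% and 48.6% of all deep intronic regions. The 50 regions near splice sites lay in short introns, of a median length of 578.5 nt beside 1451.5 nt for all regions of this kind, and 19 of them (38%) were nearer the 3′ splice site, beside 50.4%.

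Some core regions shared their sequence with other genes. In 20 regions (4.59%) the window held at least 40 bases that also occur in a coding transcript of another gene, and 16 of these lay outside coding exons. The clearest case is the intron of Ssh2, a gene for a cofilin phosphatase, whose window (chr11:77107767-77107966, plus strand) matched that of Hsp90aa1 (chr12:111932298-111932497, minus strand) at 149 of the 150 bases compared without gaps. Both are shown, chosen after their values were seen, because reads of one could have been placed on the other. Gm11914 is shown with them, a noncoding gene that shares sequence with Hmgn5 and was among the highest ranking windows with GAAGAA (chr4:27794307-27794506, minus strand).
Hsp90aa1 CDS: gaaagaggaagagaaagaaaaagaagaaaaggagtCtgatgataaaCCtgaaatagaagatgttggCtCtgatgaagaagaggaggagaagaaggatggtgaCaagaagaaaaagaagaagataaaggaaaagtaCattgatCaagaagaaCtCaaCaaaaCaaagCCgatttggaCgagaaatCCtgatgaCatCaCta
Ssh2 intron: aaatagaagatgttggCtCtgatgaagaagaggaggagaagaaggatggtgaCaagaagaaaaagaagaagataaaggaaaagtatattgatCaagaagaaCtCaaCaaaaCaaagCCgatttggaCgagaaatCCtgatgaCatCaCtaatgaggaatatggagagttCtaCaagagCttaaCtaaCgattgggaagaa
Gm11914: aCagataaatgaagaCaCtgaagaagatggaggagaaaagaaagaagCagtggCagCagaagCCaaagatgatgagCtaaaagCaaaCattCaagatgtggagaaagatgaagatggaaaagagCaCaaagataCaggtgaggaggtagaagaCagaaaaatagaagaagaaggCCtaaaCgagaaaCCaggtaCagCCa

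Column 5 at the Hsp90aa1 region was 1.58, 4.03 and 3.76 in WT ESC, 3.15, 3.83 and 3.76 in TKO ESC, and 2.40, 3.62 and 3.16 in WT EB. At the Ssh2 region it was 3.54, 15.1 and 5.56, then 4.70, 10.6 and 4.41, then 3.21, 10.1 and 10.5, higher in each of the 9 libraries. Both regions had peaks in all 13 libraries. The same kind of sharing was found between Gm5844 and Hsp90aa1, between the 2 Tm9sf2 introns and Hnrnpa3, and between Gm11914 and Hmgn5, and the level of any single copy is uncertain, as it is for the Hnrnpa3 introns named above.

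Core regions were found with and without Tet enzymes. Every core region had a peak in at least 1 TKO ESC library, 424 of 436 (97.2%) had one in at least 2 and 260 (59.6%) in all 3. In WT ESC 393 (90.1%) had a peak in all 3 libraries, in WT EB 96 (22%), in Tet2-KI ESC 422 (96.8%) in both and in Tet2deltaRBD-KI ESC 308 (70.6%) in both. The libraries with most core regions missing were WT EB replicate 1 (297 missing, the shortest list), TKO ESC replicate 1 (144 missing, 964 peaks) and Tet2deltaRBD-KI ESC replicate 2 (125 missing, 3318 peaks), and in the other 10 libraries 0 to 77 were missing. The core took 5.36 to 35.4% of the peaks of a list. As the rule required peaks in 10 of 13 libraries, it left room for only 3 absences, and the presence in TKO ESC is not an independent result.

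No core region lacked exactly the 3 TKO ESC or the 3 WT ESC libraries, and 19 lacked exactly the 3 WT EB libraries. Of those 19, 10 were in deep introns and 3 in coding sequence. The highest ranking of them was an intron of Cdh4, which encodes a cadherin, with column 5 values averaging 25.8 over 6 libraries. It was followed by Traf7, Mbnl2 (a splicing regulator), Odz4 (now Tenm4), Lrrfip2, Arid1b (a subunit of the BAF remodeller), Ppp4r1l-ps, an intergenic region of chromosome 17 and introns of Mark4 and Actn4. In at least 2 WT EB libraries a peak was present for 90.9% of the coding, 96% of the near-splice and 74.2% of the deep intronic core regions.

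The ranks of the core regions were compared between groups over the 68 that had a peak in all 9 ranked libraries. The median percentile was 74.0, 94.5 and 92.8 in WT ESC replicates 1 to 3, 63.3, 81.2 and 86.0 in TKO ESC, and 41.7, 70.4 and 67.8 in WT EB. The WT EB values all lay below the WT ESC values, while those of TKO ESC overlapped them. The mean was 87.1 ± 11.4 (SD, n = 3) in WT ESC, 76.8 ± 12 (SD, n = 3) in TKO ESC and 59.96 ± 15.9 (SD, n = 3) in WT EB. The difference from WT ESC was -10.3 for TKO ESC (two-sided exact permutation test, p = 0.4) and -27.2 for WT EB (p = 0.1, the smallest value that 3 against 3 libraries can give). Neither passed 0.05, both share the WT ESC libraries, and a percentile depends on the length of the list, which was longest in WT ESC replicate 2 with 7113 peaks and shortest in WT EB replicate 1. Within the libraries whose descriptions begin with 1703, 2 per group, the differences were -10.1 for TKO ESC and -24.6 for WT EB, too few for a test to reach 0.05. Counted instead among as many of the highest peaks of each list as the shortest list holds, 26.1, 42.0 and 41.5% of the core regions were found in WT ESC, 41.5, 35.8 and 41.7% in TKO ESC and 31.9, 41.1 and 28.9% in WT EB, with a difference of 3.13 percentage points for TKO ESC (exact permutation p = 0.9) and -2.60 for WT EB (p = 0.8).

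Within these regions the deep introns ranked above the coding sequence in every library. The 22 deep intronic regions had median percentiles of 91.7, 99.1 and 99.1 in WT ESC, 76.6, 96.1 and 96.0 in TKO ESC and 75.4, 87.2 and 79.1 in WT EB. The 30 coding regions had 32.5, 69.7 and 71.9, then 47.6, 27.0 and 68.0, then 15.3, 47.2 and 38.0. Over all core regions present in a library, the order was the same in the WT ESC and TKO ESC libraries and in WT EB replicate 1, but not in WT EB replicate 3, where the medians were 60.2 for deep introns and 78.4 for coding sequence. In WT EB replicate 2 they were 64.3 and 64.0.

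**Figure D4:**
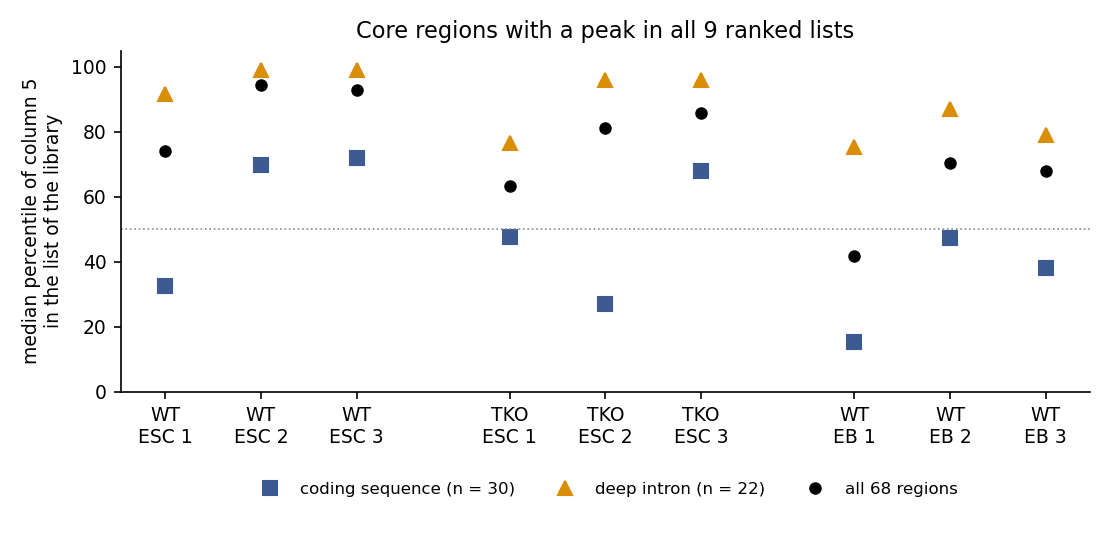
Median percentile of column 5 in the list of each library (100 is the highest) over the 68 core regions with a peak in all 9 ranked lists, and over the 30 in coding sequence and the 22 in deep introns. The deep intronic medians lie between 75.4 and 99.1 and above the coding medians in all 9 libraries.

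The 10 highest ranking regions among those of all 13 libraries were those of Calm2, Dyrk1a, Ube2v1, Peg10, Med13l, Dhx8, Htatsf1, Ndfip2, Pex5 and Hnrnpf, of which 8 are in deep introns. As background for overlap between groups, over all 283 regions with a value in the 6 libraries compared, all TKO ESC values lay below all WT ESC values in 7.07% and above them in 2.47%, and over 94 such regions all WT EB values lay below in 18.1% and above in 1.06%. Column 5 at Calm2 was 23.3, 35.4 and 61.3 in WT ESC, 16.4, 46.4 and 38.1 in TKO ESC and 14.8, 24.5 and 20.9 in WT EB. At Dyrk1a it was 24.8, 58.6 and 25.9, then 13.9, 28.9 and 45.3, then 12, 23.6 and 23.9. In both genes the TKO ESC values overlapped those of WT ESC. The WT EB values lay below all WT ESC values at Dyrk1a and overlapped them at Calm2.

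At Dhx8, a helicase that releases spliced mRNA from the spliceosome, it was 19.4, 30.6 and 32.3 in WT ESC, 15.5, 22.5 and 22.9 in TKO ESC and 8.50, 16.0 and 12.2 in WT EB. The WT EB values lay below all WT ESC values. At Htatsf1, in coding sequence, it was 14.2, 37.3 and 33.4, then 14.9, 59.0 and 32.7, then 5.55, 30.7 and 55.0, and all 3 groups overlapped. The Peg10 region, in the annotated 3′ UTR of an imprinted gene derived from a retrotransposon, had 17.0, 30.7 and 13.2, then 12.4, 34.9 and 28.0, then 11.5, 13.8 and 19.1. At Med13l, a Mediator subunit, the values were 31, 23 and 24.7 in WT ESC and 13.5, 20.01 and 11.6 in TKO ESC, without overlap, and 10.6, 28.9 and 18.8 in WT EB. Ube2v1, Ndfip2 (an adaptor of Nedd4 ligases), Pex5 (the peroxisomal import receptor) and Hnrnpf (a splicing regulator that binds G-rich RNA) had means of 16 to 28 in WT ESC, 14.2 to 25 in TKO ESC and 13 to 17.4 in WT EB.

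**Figure D5:**
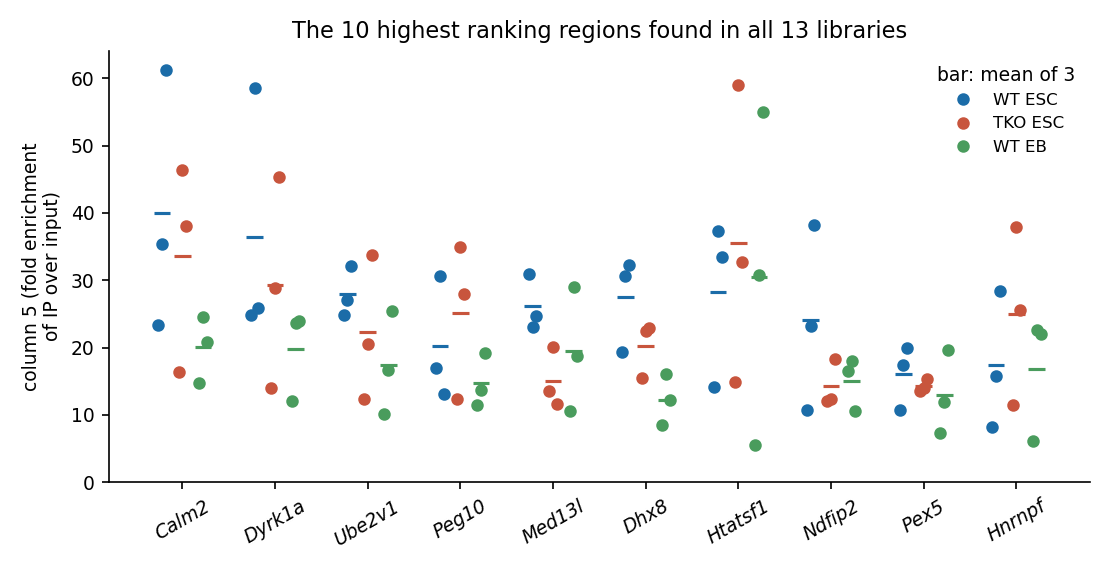
Column 5 (fold enrichment of the immunoprecipitate over input, linear axis from 0) in each library, 3 per group (WT ESC, TKO ESC, embryoid bodies), for the 10 highest ranking regions found in all 13 libraries; bars are means of 3. Values run from 5.55 (Htatsf1, WT EB) to 61.3 (Calm2, WT ESC), and the TKO ESC values overlap those of WT ESC in 9 of the 10 genes, beside 7.07% of all 283 regions with TKO ESC wholly below and 2.47% wholly above.

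At the other end, the 5 lowest ranking core regions were in Serbp1, Malat1 (2 regions), Hsp90ab1 and Prrc2c. In Malat1, a nuclear long noncoding RNA, 1 region had peaks in all 13 libraries with column 5 at 1.83, 2.14 and 2.38 in WT ESC, 3.19, 2.48 and 2.72 in TKO ESC and 2.75, 2.13 and 2.22 in WT EB. All TKO ESC values were above all WT ESC values there. The Serbp1 region had 1.69, 2.71 and 2.60, then 2.33, 2.39 and 2.35, then a single value of 1.82. These regions were found in most libraries at a low enrichment.

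Single regions were compared by limma on log2 column 5, over all merged regions with a value in at least 2 libraries of each group. For TKO ESC against WT ESC, 1179 regions were fitted and 0.0% were called higher and 0.0% lower at an adjusted p under 0.05, so that 0 of the 422 core regions fitted were called, and 46 of these (113 of the 1179) had an unadjusted p under 0.05. For WT EB against WT ESC, 730 regions were fitted, again 0.0% were called in either direction, and 83 of the 358 core regions (145 of the 730) had an unadjusted p under 0.05. The median difference of the core regions on the log2 scale was -0.10 for TKO ESC, beside -0.02 for all fitted regions, and -0.17 for WT EB, beside 0.04. A core region entered this fit through its peaks, so values under the calling threshold are missing from it.

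The medians for WT EB varied with the transcript part, which was not tested. On the log2 scale the median was -0.54 over 114 deep intronic core regions, of which 92 were below 0, and it was 0.04 over 149 coding and 0.24 over 48 near-splice core regions. In the fitted regions outside the core, the medians were -0.25 over 87 deep intronic, 0.37 over 167 coding and 0.34 over 80 near-splice regions, and the deep introns were again the lowest of these 3 parts. In the 1703 libraries alone the core medians were -0.72, 0.02 and 0.10. With all libraries, the core medians for TKO ESC were -0.25 over 149 deep intronic, -0.02 over 163 coding and -0.03 over 50 near-splice regions, beside -0.08, 0.20 and 0.22 over the fitted regions outside the core. The core medians of UTR and intergenic regions, over few regions each, were below 0 as well. In TKO ESC they were -0.54 in 5′ UTRs (7 of 7 below 0), -0.38 in 3′ UTRs (10 of 13) and -0.38 outside genes (15 of 24), beside -0.12, -0.32 and -0.02 over the regions outside the core. In WT EB they were -0.30 in 5′ UTRs (4 of 6 below 0), -0.53 in 3′ UTRs (8 of 10) and -0.39 outside genes (17 of 20), beside 0.78, 0.57 and 0.06 over the 4, 5 and 23 regions outside the core, while core medians in noncoding genes were 0.08 for TKO ESC and 0.32 for WT EB. In these bulk samples, fewer cells with an enriched transcript and less enrichment in each cell cannot be told apart.

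As no core region passed the adjusted test, those with the largest differences and a value in all 6 libraries are given by their values. At Zfp407, a zinc finger gene, column 5 in a deep intron was 14.7, 27.4 and 26.4 in WT ESC and 8.05, 8.87 and 6.63 in TKO ESC, without overlap, a log2 difference of -1.66 ± 0.36 (SE) with a limma adjusted p of 0.27. Tsix is transcribed antisense to Xist, and reads of the pair cannot be told apart without strand. A Tsix region had 19.5, 12.5 and 23.6 in WT ESC and 8.50, 9.97 and 6.14 in TKO ESC (log2 difference -1.32 ± 0.38, limma adjusted p = 0.27). The others with lower values in TKO ESC were the 5′ UTR regions of Rimklb (-1.47) and Cdk19 (-1.28) and a deep intron of 2900026A02Rik (-1.36). Those with higher values were coding regions of Luc7l3 (0.89), Sec63 (0.88), Smc3 (0.86) and Ddx3x (0.83), and an intergenic region of chromosome 4 (1.07), whose level is uncertain because it shares sequence with transcripts of Arsb and Xkrx. Among all core regions with a value in the 6 libraries, 17 of 246 (6.91%) had TKO ESC wholly below WT ESC and 6 (2.44%) wholly above, near the shares of all 283 regions given above, most of which are core regions.

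In WT EB 4 of the 5 regions with the lowest values relative to WT ESC were in deep introns. At Agtpbp1, which encodes a carboxypeptidase acting on tubulin, column 5 was 11.8, 33.7 and 31.6 in WT ESC and 6.11, 7.47 and 5.65 in WT EB, without overlap (log2 difference -1.87 ± 0.41, limma adjusted p = 0.077). A Tsix region next to the former had 28.9, 28.2 and 22.5 in WT ESC and 9.53, 4.98 and 8.87 in WT EB (-1.82 ± 0.41, limma adjusted p = 0.077). Deep introns of Pde4d (a phosphodiesterase), Cblb (a ubiquitin ligase) and Lmf1 (a lipase maturation factor) had log2 differences of -1.61, -1.50 and -1.28. Among all core regions with a value in the 6 libraries, 15 of 88 (17%) had WT EB wholly below WT ESC and 0 wholly above, near the shares of all 94 regions, most of which are core regions. The Lmf1 window shares sequence with transcripts of many other genes, and its level is uncertain. Among regions with a value in all 6 libraries, the largest differences towards WT EB were those of Hspa5, the main chaperone of the endoplasmic reticulum, with 5.59, 6.51 and 6.57 in WT ESC and 4.68, 16.5 and 23.2 in WT EB (0.96 ± 0.40, limma adjusted p = 0.21), and of Ddx10 (0.85), Ssb (0.78), Twistnb (0.54) and Atrx (0.45), all with groups that overlapped.

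Some regions without a peak in 1 or 2 of the 6 libraries also had large differences, in both directions, and those named here were chosen after their values were seen. In WT EB, a coding region of Top1 had 4.62, 8.39 and 8.13 in WT ESC and 39.9 and 21.3 in WT EB replicates 2 and 3 (log2 difference 1.85 ± 0.42, limma adjusted p = 0.077), and a coding region of Zmat2, a component of the spliceosome, had 5.56, 4.32 and 4.21 beside 16.4 and 19.9 (1.71 ± 0.37, limma adjusted p = 0.077). In the other direction, also without a peak in WT EB replicate 1, the Tsix region first named above had 7.66 and 4.79 in WT EB replicates 2 and 3 (-1.81 ± 0.43), an intergenic region of chromosome 9 had 26.3, 39.4 and 32.0 in WT ESC beside 14.9 and 11.2 (-1.56 ± 0.37), and a deep intron of Srrm2, a scaffold protein of nuclear speckles, had 8.34, 8.12 and 8.52 beside 3.73 and 3.18 (-1.52 ± 0.36), each with a limma adjusted p of 0.077. In TKO ESC, a coding region of Krcc1 had 7.88, 16.2 and 6.74 in WT ESC and 61.6 and 28.2 in TKO ESC replicates 2 and 3 (1.82 ± 0.46, limma adjusted p = 0.27), and a deep intron of Utrn, the gene of the dystrophin relative utrophin, had 4.92 and 4.65 in the WT ESC libraries 1 and 2 beside 30.1 and 19.8 (2.00 ± 0.44, limma adjusted p = 0.27). An intergenic region of chromosome 5 had 18.2, 23.9 and 30.3 in WT ESC and 5.94 and 10.02 in TKO ESC replicates 1 and 3 (-1.64 ± 0.40, limma adjusted p = 0.27). A missing value is a peak that did not pass the threshold, and it was not imputed. Each region named with higher values lacked a peak in replicate 1 of TKO ESC or WT EB, while WT ESC replicate 1 had one. Descriptions begin with 1608 or 1610 for these replicate 1 libraries and with 1703 for replicates 2 and 3.

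Of the pluripotency list, 2 of 24 genes with a region (8.33%) held a core region, beside 4.15% of all genes. They gave 2 coding regions of L1td1, an RNA-binding protein of stem cells, and an intronic region of Tet1. Column 5 at the Tet1 region was 2.77, 5.29 and 5.25 in WT ESC, 4.69, 7.27 and 5.00 in TKO ESC and 6.80 in the only WT EB library with a peak. The values of WT ESC and TKO ESC overlapped. The Tet1 region lies at chr10:62319631-62319887, and Tet1 is one of the genes knocked out in TKO ESC.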

How the data were processed

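The data are deposited peak lists of 13 hMeRIP-seq immunoprecipitated libraries. The authors discarded low-complexity, rRNA and tRNA reads (Bowtie2), trimmed adapters (Trimmomatic), aligned to mm9 (STAR) and, per library, ran MACS2 on immunoprecipitate and input, keeping q-values under 0.05. Each deposited interval spans 200 bp around a summit. Column 5 of 9 deposited lists is a ratio, the fold enrichment computed by the authors' peak caller, and the 4 knock-in lists gave positions only. The sources name no read counts for these lists, so the depth behind each peak is unknown and the error of a single value cannot be shown.

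Intervals were merged where they overlapped by at least 1 bp, the centre of a region was the median of its summits, and a region took the highest value of its peaks in a library. Sequence came from NCBIM37 (99.7% of 56538 intervals lay on its chromosomes, and 2 core regions had no sequence) and genes from GENCODE M1, whose symbols are used. Symbols were matched to newer ones with RefSeq synonyms. The analysis used Python 3.11.15, pandas 2.3.3, scipy 1.17.1, samtools 1.23.1 and limma 3.58.1 in R 4.3.3. Groups came from the sample titles.

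Regions were named as follows: the 10 highest ranking of those in all 13 libraries, the 5 lowest ranking, genes with 3 or more, regions missing exactly 1 group, those called by limma (or, with none called, the 5 largest differences each way), and genes of the lists. Windows were taken by rank within each part or motif, outside chromosome 18 and UTRs. The sequence of a further window is not reported here. The members and lists were chosen with earlier results of these data known. Log2 values were centred on the median of each library, p-values were adjusted by Benjamini-Hochberg over all regions fitted, and group medians were compared by exact permutation tests. The code was tested on simulated data. Alternatives were other library minimums, overlaps, widths, peak thresholds and filters, the 1703 libraries alone, a fit blocked on replicate number, and the omission of single replicates.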

Additional observations from a re-analysis of the deposited data

How the results depend on the processing

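The number of core regions, 436, depends on the rule: 681 with at least 9 libraries, 283 with at least 11, 58 with all 13, 287 when regions wider than 400 bp were left out, and 203 when only peaks above the median of their own list were used, but 425 with an overlap of at least 100 bp and 434 on chromosomes 1 to 19 and X. When 1 library was left out and 10 of the remaining 12 were required, 282 to 410 regions were kept, the lowest without Tet2-KI ESC replicate 1, the longest list. The exonic share was 53.8% with all 13 libraries, 53.8% for regions of at most 400 bp and 60.6% with any overlap with an exon, and the tandem repeat share was 1.72% with all 13 libraries. The pyrimidine share moved by less than the spread between regions under all its alternatives. The rank difference of TKO ESC turned to 3.13 percentage points among the highest peaks at equal list length, and over left-out replicates it ran from -16.8 to -3.53, while that of WT EB ran from -33.7 to -18.0. Without TKO ESC replicate 1 the TKO ESC difference was -3.53. No limma call was made except in the 1703 libraries alone for TKO ESC, where 5 of 930 regions were called, 3 of them core regions with lower values (Map4k4, Zfp407 and C2cd3). At Map4k4 the 1608 library of TKO ESC, with 20.2, lay above the 1608 library of WT ESC, with 10.1.

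Replicate numbers 1 to 3 are shared between groups, but the labels do not say that they mark a shared batch. Deviations from the group means correlated at 0.36, 0.19 and -0.09 for same-numbered libraries of WT ESC and TKO ESC and at 0.35, 0.25 and -0.01 for WT ESC and WT EB (68 regions). For libraries of different number the correlations ran from -0.44 to 0.35 and from -0.37 to 0.21, so the numbers were not taken as pairs. With the replicate block the rank differences were -10.3 (exact sign-flip permutation p = 0.25) and -27.2 (p = 0.25, the smallest possible with 3 pairs), and limma called 0 regions in either comparison. The lists carry no depth, and presence in a short list such as that of WT EB replicate 1 is limited by its length.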
